A study of Mus musculus with 15 samples.

Results

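Myeloid cells of the wild-type (WT) mouse hindbrain were compared between postnatal day 15 (P15) and postnatal day 10 (P10). The comparison used the 2 libraries deposited for each age, 4 of the 15 libraries in the series. Cells had been sorted by flow cytometry for CD45 and CD11b, surface proteins of microglia and other myeloid cells, from dissected brainstem with cerebellum. The series also holds WT libraries at P20 (3 libraries) and libraries of Twitcher (Twi) mice, a Galc mutant model of Krabbe disease, at P10 (3 libraries), P15 (2 libraries) and P20 (3 libraries). None of the sample labels names a transgene, a Cre driver, a transplant or a treatment, although the series description also speaks of animals that received monocytes. The labels do not say whether a library came from 1 animal or from pooled animals. All p-values therefore measure the spread between libraries.

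Microglia enter the brain before birth, divide there and keep maturing after birth. Dividing cells copy their DNA with the MCM helicase and replication factors in S phase and separate it with cyclin B, its kinase and spindle proteins in mitosis. Early postnatal microglia of myelinating tracts are known for Spp1, Igf1, Gpnmb and lysosomal genes. Adult microglia are known for homeostatic genes such as P2ry12 and Tmem119. A CD45 and CD11b sort can also take neutrophils, monocytes and macrophages of the brain's borders.

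Markers of the sort were detected in all 4 libraries. Ptprc, which encodes CD45, measured 933 to 1428 CPM (estimated reads of a gene scaled to a common library size, not to gene length), and Itgam, which encodes CD11b, measured 749 to 1081 CPM. The microglial gene Csf1r (5706 to 8398 CPM) was also detected in each. Depth ran from 29 M to 42 M read pairs per library by the labels, which do not say which library had which. Across the 15 libraries 15691 to 16831 genes lay above the lowest value of the table. Across genes, which are not independent replicates, the libraries correlated at r = 0.951 at P10 and 0.95 at P15. Each age had 1 library in sequencing batch 1 and 1 in batch 2. At P10, replicate 1 was in batch 2; the other column carries a number that no label has, was used as an unnumbered library of its group and was given batch 1, the batch left there. At P15, replicate 1 was in batch 2 and replicate 2 in batch 1.

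Features that set single libraries apart were as follows. Cx3cr1, a chemokine receptor gene of microglia, measured 70 CPM in WT P15 replicate 2 but 3432 CPM in WT P15 replicate 1, and 5459 and 5947 CPM at P10. Only Twi P10 replicate 3 (71.2 CPM) and Twi P15 replicate 1 (67.8 CPM) were as low among the 15 libraries. The mean of 4 Y-linked genes was 53.3 CPM in WT P10 replicate 1 and 2.51 to 2.73 CPM in the other 3 libraries of the comparison. The part of either in the results was not tested beyond the values given without each library and with a Y-linked covariate.

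Among the 13292 genes that reached 1 CPM in 2 or more libraries, 862 differed between the ages (6.49%) at an adjusted p under 0.05 in limma. Called genes were split into 398 that were higher at P15 (2.99%) and 464 that were lower (3.49%). At an unadjusted p under 0.05 there were 2757 genes (20.7%). More than 1 log2 unit separated the ages for 277 of the higher and 331 of the lower genes, and more than 2 log2 units for 101 and 167. The median over all genes tested was 0.03 log2 units. The libraries of the 2 ages did not overlap for any called gene, and neither did they for 51.1% of all genes tested, so lack of overlap alone says little with 2 libraries against 2. An exact permutation test of 2 against 2 libraries could give no two-sided p below 0.333, so calls rest on the spread pooled over all groups.

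The count depended on each of the 4 libraries. Without WT P10 replicate 1, 105 genes were called higher and 147 lower. Without the unnumbered WT P10 library the counts were 104 and 73, without WT P15 replicate 1 they were 45 and 66, and without WT P15 replicate 2 they were 37 and 106. In these fits the age left with a single library was assumed to vary like the other groups. All 862 genes kept their direction in each of the 4 fits. Since no called gene overlapped between the ages, only the batch term could have turned a direction, so this says little. Most of the 862 genes were not called in all 4 fits. Those that were included Fen1, Mcm3, Mki67, Ccnb1, Psat1, Ctsb, Igf1, Gpnmb, Abcg1 and Sepp1 on the lower side. On the higher side they included Btg2, Nfkbia, Trpm2 and Bbs9. With the Y-linked covariate, 250 genes were called higher and 328 lower.

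**Figure D1:**
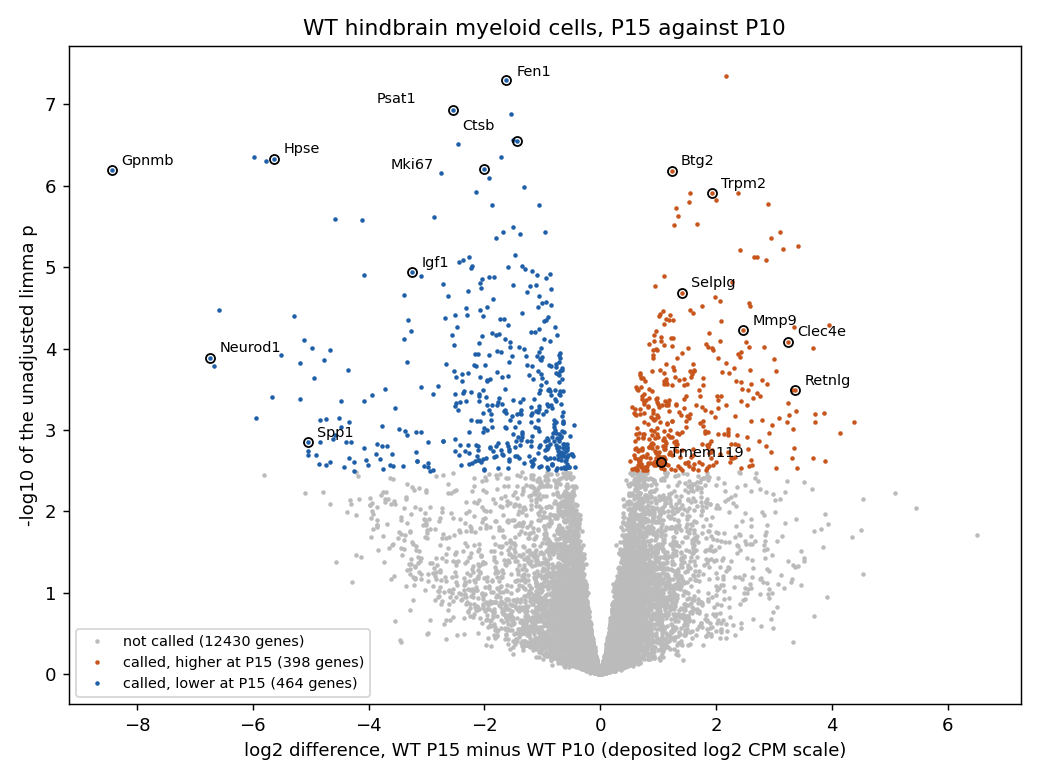
Each point is a gene, with the log2 difference between WT P15 and WT P10 on the x axis and the negative log10 of the unadjusted limma p on the y axis. Orange points are the 398 genes called higher at P15, blue points the 464 called lower, and circles mark named genes; Gpnmb lies farthest left at -8.43.

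Most measured genes of the cell cycle fell. Of 36 measured genes of G1/S and DNA replication, 24 were lower at P15 and none was higher, and of 39 measured genes of G2/M and mitosis, 28 were lower and none was higher. The median difference was -1.37 log2 units for the first list and -1.87 for the second, against 0.03 over all genes. Within batch 1 the medians were -1.52 and -2.00, and within batch 2 they were -1.36 and -1.77.

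Among replication genes, Fen1, the flap endonuclease that trims Okazaki fragments, measured 194 and 198 CPM at P10 and 69.6 and 57.1 CPM at P15. Fen1 was 3.09-fold lower at P15, with a log2 difference of -1.63 ± 0.15 (SE; limma adjusted p = 0.000334). Mcm3, a subunit of the replicative helicase, measured 157 and 209 CPM at P10 and 52 and 78.4 CPM at P15. Both libraries of each age stood clear of the other age for both genes. Mcm2, Mcm4, Mcm5, Mcm6, Mcm7 and Mcm10 were also called lower, from -0.67 for Mcm7 to -2.71 for Mcm10. Genes that supply nucleotides fell as well. Rrm1 and Rrm2, the subunits of ribonucleotide reductase, differed by -1.50 and -1.64. Tyms and Tk1, which make thymidylate, differed by -1.02 and -1.65. E2f1, a transcription factor of the G1/S step, measured 12 and 15.6 CPM at P10 and 4.93 and 5.72 CPM at P15.

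On the mitotic side, Mki67, the gene of the proliferation marker Ki-67, measured 149 and 195 CPM at P10 and 41.3 and 43.7 CPM at P15. The log2 difference of Mki67 was -2.00 ± 0.23 (SE; limma adjusted p = 0.000625). Ccnb1, which encodes cyclin B1, measured 143 and 149 CPM at P10 and 25.6 and 28.3 CPM at P15, a 5.41-fold difference. Cdk1, the kinase that cyclin B activates, measured 87.1 and 110.0 CPM and then 26.7 and 27.3 CPM. Top2a, the topoisomerase that untangles sister chromatids, measured 204 and 247 CPM and then 64.5 and 68.3 CPM. For each of these genes both P10 libraries lay above both P15 libraries. Spindle and checkpoint genes Ndc80, Cenpe, Bub1b, Aurka, Plk1 and Ttk were called lower too, from -1.87 for Ndc80 to -2.32 for Bub1b.

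In a list of histones, chromatin factors and tubulin genes, 5 of 13 measured members were lower and none was higher, with a median of -0.75. These were the tubulins Tuba1b and Tubb5, the tubulin-binding Stmn1, the histone methyltransferase Ezh2 and the histone acetyltransferase Hat1. Stmn1 measured 325 and 466 CPM at P10 and 91 and 111 CPM at P15. Outside the list, the variant histone gene H3f3b was called lower, at 4176 and 3240.0 CPM and then 2211 and 2044 CPM (log2 difference -0.79 ± 0.21 SE; limma adjusted p = 0.0404), and it was not called without any of the 4 libraries in turn. Of 13 measured inhibitors of the cycle, 1 was higher, against 2.99% of all genes, and none was lower. This was Btg2, an antiproliferative gene that is also induced by cell handling, at 257 and 240.1 CPM at P10 and 527 and 655 CPM at P15 (log2 difference 1.24 ± 0.14 SE; limma adjusted p = 0.000625). The counts depended on single libraries. Without WT P10 replicate 1, the unnumbered WT P10 library, WT P15 replicate 1 and WT P15 replicate 2 in turn, 13, 6, 3 and 9 G1/S genes and 12, 7, 9 and 7 G2/M genes were called lower, and 1, 0, 0 and 0 genes of the histone and tubulin list. Over the alternatives run the medians ranged from -1.61 to -1.19 for G1/S and from -2.01 to -1.75 for G2/M. In bulk samples, fewer cells in division and less of these RNAs per cell cannot be told apart.

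Promoters of mitotic genes are known for a CCAAT box and a cell cycle homology region (CHR), and they are shown here because 28 G2/M genes were lower in the same libraries. RefSeq promoter windows (build GRCm38.p6, the 250 bases before the start site) matched 34 of the 39 measured G2/M genes and 31 of the 36 G1/S genes, and both strands were searched. The CCAAT box (CCAAT) occurred in 76.5% of the G2/M windows and 64.5% of the G1/S windows, against 36.7% of the windows of genes tested. The CHR (TTTGAA) occurred in 32.4% of G2/M windows and 6.45% of G1/S windows, against 11% of genes tested. An E2F motif (TTTCCCGC or TTTGGCGC) occurred in 16.1% of G1/S windows and in none of the 34 G2/M windows, against 2.53% of genes tested. None of these motifs contains another, though neighbouring matches can share end letters. A match describes letters in the window, not a bound site.

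Windows of 4 genes called lower that hold both the CCAAT box and the CHR follow, chosen after their values were seen as those with the highest mean CPM at P10. Sequences are written 5′ to 3′ in the direction of transcription, and capitals mark the CCAAT box and the CHR on either strand.
Top2a, chr11:99024190-99024439, minus strand: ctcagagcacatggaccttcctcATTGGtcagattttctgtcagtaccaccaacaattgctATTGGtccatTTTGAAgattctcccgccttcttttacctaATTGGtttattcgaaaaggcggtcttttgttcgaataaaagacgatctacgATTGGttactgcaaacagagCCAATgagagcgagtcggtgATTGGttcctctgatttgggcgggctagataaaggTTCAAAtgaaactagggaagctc
Mki67, chr7:135716380-135716629, minus strand: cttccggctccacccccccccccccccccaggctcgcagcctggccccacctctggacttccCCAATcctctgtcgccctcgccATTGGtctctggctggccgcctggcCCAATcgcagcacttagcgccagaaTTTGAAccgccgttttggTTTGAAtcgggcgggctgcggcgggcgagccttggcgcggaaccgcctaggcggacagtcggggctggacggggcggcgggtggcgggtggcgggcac
Cdk1, chr10:69352913-69353162, minus strand: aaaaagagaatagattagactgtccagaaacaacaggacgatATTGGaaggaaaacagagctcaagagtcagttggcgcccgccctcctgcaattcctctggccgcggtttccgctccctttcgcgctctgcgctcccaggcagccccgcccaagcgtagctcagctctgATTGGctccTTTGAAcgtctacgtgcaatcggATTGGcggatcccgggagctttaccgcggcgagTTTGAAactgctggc
Ccnb2, chr9:70421555-70421804, minus strand: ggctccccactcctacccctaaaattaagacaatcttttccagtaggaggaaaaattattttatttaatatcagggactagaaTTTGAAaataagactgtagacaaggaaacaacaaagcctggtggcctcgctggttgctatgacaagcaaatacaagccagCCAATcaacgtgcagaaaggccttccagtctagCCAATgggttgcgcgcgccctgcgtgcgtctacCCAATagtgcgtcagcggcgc
The CHR match nearest the start site lay 15 bases before it in Cdk1, 23 in Top2a, 98 in Mki67 and 167 in Ccnb2, counted to the first base of the match. Cdk1, Top2a and Mki67 held 2 such matches each and Ccnb2 held 1.

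Genes of serine synthesis and the folate cycle moved in both directions. Psat1, an enzyme of serine synthesis, measured 117 and 138 CPM at P10 and 17.3 and 27.3 CPM at P15, with a log2 difference of -2.55 ± 0.25 (SE; limma adjusted p = 0.000436). Phgdh, the first enzyme of that pathway, differed by -0.71, and Shmt2, which moves serine carbon into mitochondrial folate, by -1.18. Mthfd2, a mitochondrial folate enzyme, rose, from 29.6 and 22.1 CPM to 63.7 and 57.9 CPM. In the stress response list that holds these genes, 4 of 24 were higher and 4 were lower. The higher members were Mthfd2, Ddit3, Sesn2 and Slc7a11, and the fourth lower member was Hmox1. The median of the list was 0.26, with -0.25 in batch 1 and 0.28 in batch 2. Without each of the 4 libraries in turn, in the order used for the cell cycle lists, 1, 0, 0 and 0 were called higher and 2, 1, 1 and 1 lower.

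Some homeostatic microglial genes rose. Of 28 measured members, 6 were higher at P15 and none was lower, and 23 had a positive difference, with a median of 0.46. Of 25 genes of adult-stage microglia, 5 were higher and none was lower, with a median of 0.54. Within batch 1 the medians were 0.57 and 0.72, and within batch 2 they were 0.19 and 0.37.

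Cst3, which encodes the protease inhibitor cystatin C, had the largest gain in CPM, a scale not corrected for gene length, from 7042 and 8710 CPM at P10 to 18390 and 17020 CPM at P15. Its log2 difference was 1.18 ± 0.25 (SE; limma adjusted p = 0.0172). Selplg, the gene of the selectin ligand PSGL-1, measured 3056 and 1753 CPM at P10 and 5856 and 6521 CPM at P15. Tmem119, a membrane protein gene used as a microglial marker, measured 3700 and 2210 CPM and then 5376 and 6523 CPM. For Selplg and Tmem119 the unnumbered P10 library was the lowest. Tgfbr1, a receptor subunit for TGF-beta, measured 1781 and 1257 CPM at P10 and 2684 and 2800 CPM at P15. Ctss, a cathepsin of antigen processing, and Ecscr differed by 0.55 and 0.74.

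Other defining homeostatic genes did not pass the test. P2ry12, the ADP receptor of microglial processes, measured 12750 and 10930 CPM at P10 and 15620 and 19850 CPM at P15 (log2 difference 0.58 ± 0.22 SE; limma adjusted p = 0.135). Sall1, a transcription factor of microglial identity, differed by 0.47 (adjusted p = 0.213) and Siglech by 0.14 (adjusted p = 0.697). Cx3cr1 could not be read, because its level spanned 70 to 3432 CPM within P15. In the adult-stage list the members called were Btg2, Cd14, Upk1b, Arhgap5 and Rhob. Cd14, a co-receptor for bacterial lipopolysaccharide, measured 578 and 508 CPM at P10 and 1167 and 1128 CPM at P15. Upk1b, a tetraspanin gene, measured 40.6 and 19.4 CPM and then 133 and 178 CPM. Leaving out the 4 libraries in the same order, 3, 1, 1 and 0 homeostatic and 3, 1, 1 and 2 adult-stage genes were called higher.

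Part of the genes of early postnatal and axon-tract microglia fell. Of 29 measured members, 10 were lower at P15 and 1 was higher, with a median of -0.59 (batch 1, -1.25; batch 2, -0.36). Gpnmb, a glycoprotein gene of phagocytic macrophages, measured 44.9 and 235 CPM at P10 and 0.199 and 0.215 CPM at P15. Its log2 difference was the lowest among the named genes called, -8.43 ± 0.88 (SE; limma adjusted p = 0.000625). Spp1, which encodes osteopontin, measured 744 and 4010 CPM at P10 and 55.2 and 49.2 CPM at P15. Igf1, a growth factor gene, measured 171 and 412 CPM and then 30.4 and 25.7 CPM. Each of these was higher in the unnumbered P10 library than in replicate 1, and both P10 libraries lay above both P15 libraries.

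Gpx3, a secreted glutathione peroxidase gene, measured 339 and 419 CPM at P10 and 14.5 and 34.1 CPM at P15. Lpl, the gene of lipoprotein lipase, measured 274 and 468 CPM and then 121 and 123 CPM. Ctsb, a lysosomal cysteine protease gene, had the largest loss in CPM, from 12730 and 18570 CPM to 5385 and 5949 CPM (log2 difference -1.44 ± 0.16 SE; limma adjusted p = 0.000593). Ctsl, Dab2, Hmox1 and Plin2 were the other lower members. The member that rose was Lgals3, a galectin gene, from 41.4 and 57.8 CPM to 179 and 189 CPM. Clec7a and Itgax, also markers of this state, differed by 0.11 (adjusted p = 0.893) and -0.43 (adjusted p = 0.733). Leaving out each of the 4 libraries in the same order, 10, 4, 4 and 4 members were called lower. Some of these genes are also expressed by border-associated macrophages, of whose markers 7 of 19 were called lower, and Dab2 stands in both lists. Their part in the result was not tested.

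**Figure D2:**
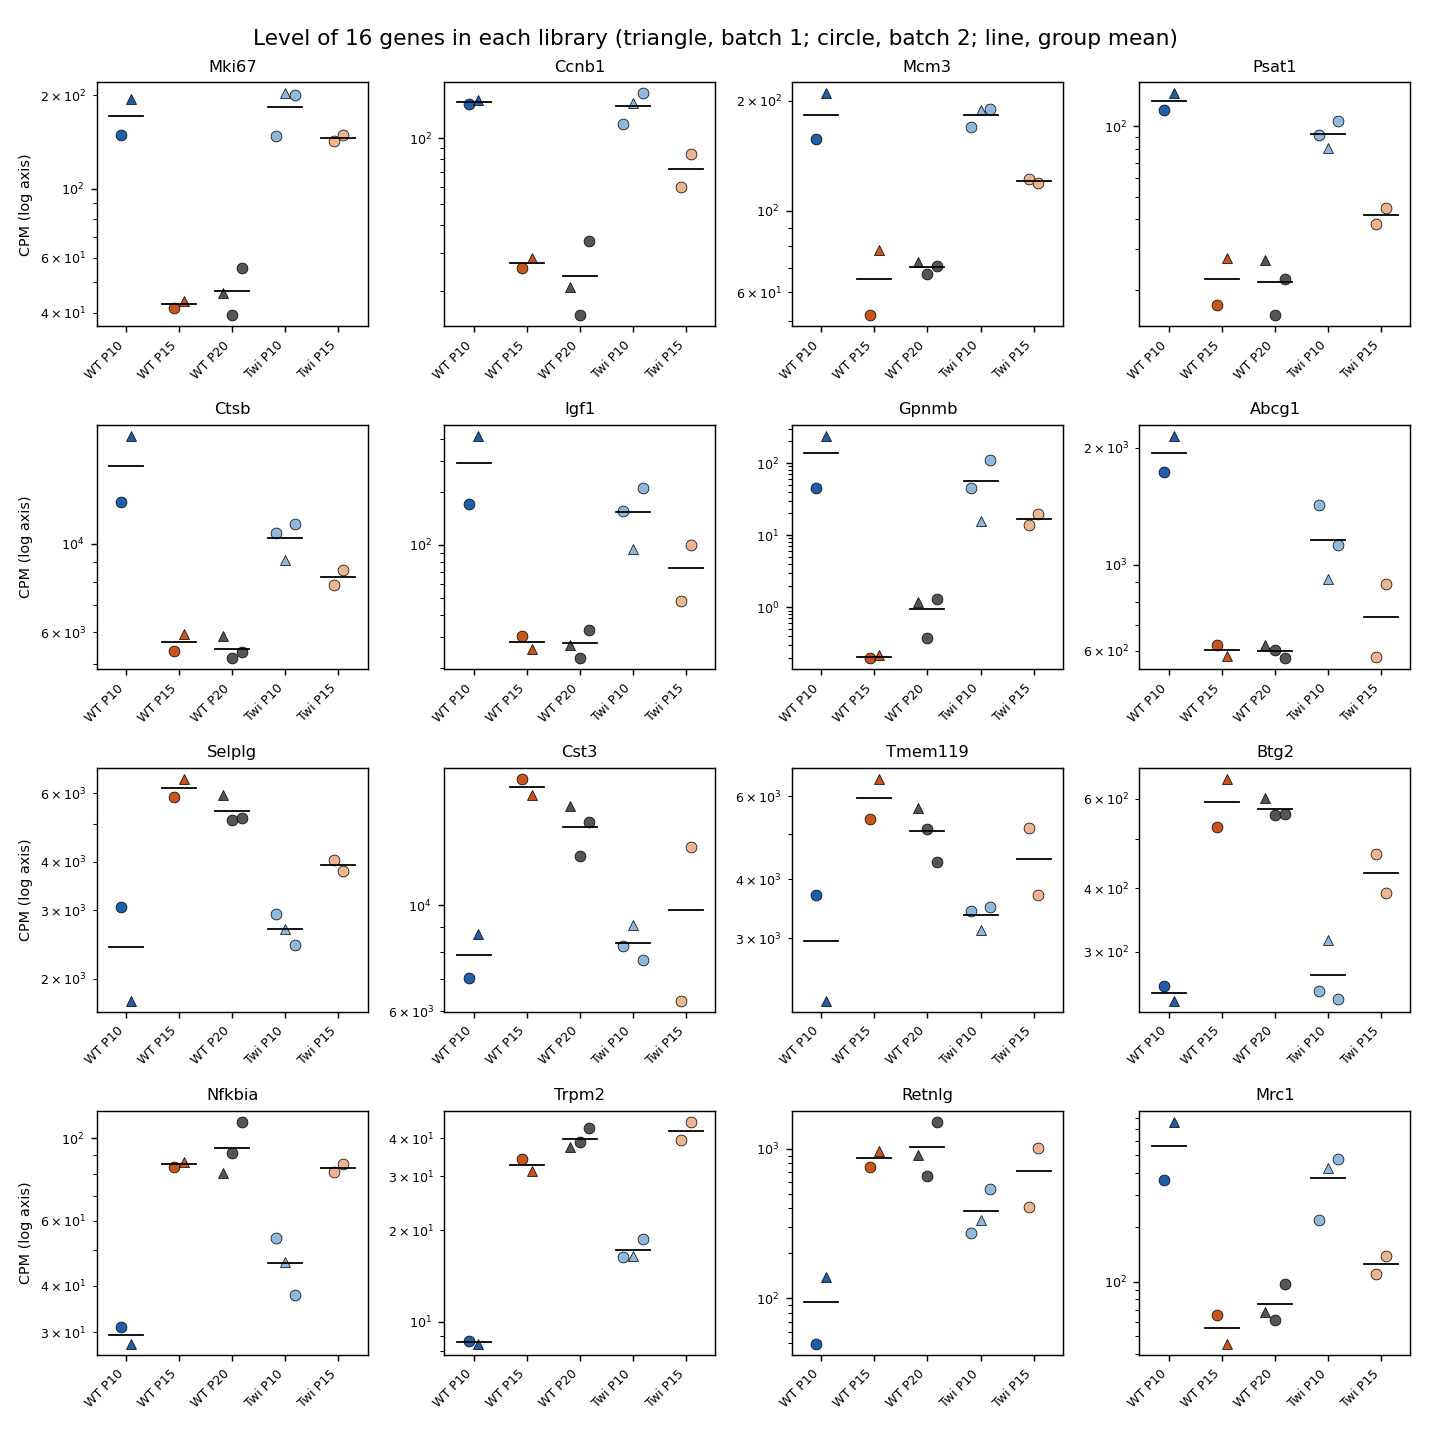
Level of 16 genes in CPM on log axes in the WT libraries at P10, P15 and P20 and the Twi libraries at P10 and P15. Points are libraries (triangles for batch 1, circles for batch 2) and lines are group means. All 16 genes were called, and no called gene overlapped between WT P10 and P15, so their separation in each panel came with that choice. Mki67, for example, measured 41.3 and 43.7 CPM at WT P15 against 149 and 195 CPM at WT P10.

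Lysosomal genes held more falls than rises. Of 53 measured members, 12 were lower and 2 were higher, with a median of -0.26 (batch 1, -0.24; batch 2, -0.29). Beside Ctsb and Ctsl, the lower members included the proteases Ctsa, Ctsz and Tpp1, the membrane protein gene Lamp1, and the glycosidases Hexa, Gusb and Galc. Tpp1 measured 1102 and 1247 CPM at P10 and 605 and 704 CPM at P15. Hexa, a glycosidase gene, measured 1152 and 1180 CPM and then 664 and 603 CPM. Lipa and Npc2, which release and carry cholesterol in the lysosome, differed by -0.66 and -0.60. Ctss was higher, as was Tfe3, a transcription factor of lysosomal genes, at 118 and 109 CPM and then 176 and 167 CPM.

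Galc, the gene mutated in Twitcher, was among the lower genes in these WT cells. Galc measured 56 and 68.5 CPM at P10 and 31.5 and 28 CPM at P15, with a log2 difference of -1.06 ± 0.29 (SE; limma adjusted p = 0.0462). Of 41 measured genes of sphingolipid metabolism, 3 were lower, Hexa and Galc among them, and none was higher. The share called was near that over all genes (6.49%), and the median was 0.10. None of the 3 was called without any of the 4 libraries in turn.

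Genes of lipid uptake, storage and efflux were lower in 10 of 33 measured members and higher in none, with a median of -0.43 (batch 1, -0.80; batch 2, -0.65). Abcg1 and Abca1 encode transporters that export cholesterol. Abcg1 measured 1733 and 2143 CPM at P10 and 620.2 and 583 CPM at P15 (log2 difference -1.68 ± 0.23 SE; limma adjusted p = 0.00135). Abca1 measured 495 and 647 CPM and then 257 and 232 CPM. Scd2, a fatty acid desaturase gene, differed by -1.47, Pltp, which transfers phospholipid, by -2.07, and the scavenger receptor gene Cd36 by -2.71. Soat1, which esterifies cholesterol, differed by -0.83. No gene of cholesterol synthesis was called by limma among 24 measured, with a median of -0.15. In the 4 fits without 1 library, in the same order, 5, 1, 1 and 3 lysosomal genes and 8, 2, 3 and 2 lipid genes were called lower.

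Outside these lists, Sepp1, which encodes the selenium carrier selenoprotein P, measured 8479 and 9000 CPM at P10 and 3515 and 3512 CPM at P15. Its log2 difference was -1.31 ± 0.16 (SE; limma adjusted p = 0.000784). Of 13 genes encoded in mitochondrial DNA, mt-Cytb and mt-Co1 were lower and none was higher. mt-Cytb, a subunit of respiratory complex III, measured 5486 and 5803 CPM and then 3743 and 3221 CPM. No nuclear gene of oxidative phosphorylation was called among 39. Of 51 ribosomal protein genes, Rpl3 and Rpl4 were lower, against 3.49% of all genes, and none was higher, and the list's median differed in sign between batches (batch 1, -0.76; batch 2, 0.62). With each of the 4 libraries left out in the same order, 2, 0, 0 and 0 mitochondrially encoded genes and no ribosomal protein gene were called. Among 24 genes of glycolysis and hypoxia the only one called was Bnip3, which was lower, against 3.49% of all genes. Bnip3, a mitophagy receptor gene, measured 148 and 149.9 CPM and then 65.9 and 56.4 CPM.

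Several inflammatory regulators rose. Of 31 cytokine and NF-kB genes, 5 were higher and 1 was lower, with a median of 0.55 (batch 1, 0.46; batch 2, 0.48). Nfkbia, which encodes the NF-kB inhibitor IkB-alpha, measured 30.9 and 28 CPM at P10 and 83.8 and 86.3 CPM at P15. The log2 difference of Nfkbia was 1.53 ± 0.19 (SE; limma adjusted p = 0.000875). Tnfaip3, another feedback inhibitor gene, measured 18.3 and 12.4 CPM and then 29.5 and 35.5 CPM. Il1b, a cytokine gene, measured 4.16 and 3.23 CPM and then 17.3 and 9.23 CPM. Cxcl16 and Tlr4 differed by 1.08 and 0.64, and Ccl7, a monocyte chemokine gene, was lower at -2.02. Genes that cell dissociation induces are known to rise with handling. Their summed level was 633 and 667 CPM at P10 and 1186 and 1305 CPM at P15. Of 23 measured, 2 were called (Btg2 and Klf6), against 6.49% of all genes called. The part of handling in these rises was not tested. With each of the 4 libraries left out, in the same order, 2, 1, 2 and 1 cytokine and NF-kB genes were called higher.

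Of 29 purinergic and other sensing receptors, 5 were higher and none was lower. These were Fpr2, a formyl peptide receptor, C5ar1, a complement receptor, Cysltr1, a leukotriene receptor, Gpr183, an oxysterol receptor, and Nt5e, an enzyme that makes adenosine. Fpr2 measured 4.53 and 9.74 CPM at P10 and 24.3 and 30.3 CPM at P15, and Nt5e measured 1.22 and 3.34 CPM and then 20.1 and 10.6 CPM. Of these receptors, 0, 2, 0 and 0 were called higher without the 4 libraries in the same order. The ion channel list held 1 call in 23, against 6.49% of all genes called. The gene called was Trpm2, a calcium channel gene gated by ADP-ribose. Trpm2 measured 8.63 and 8.47 CPM at P10 and 34.3 and 31.2 CPM at P15 (log2 difference 1.92 ± 0.23 SE; limma adjusted p = 0.000784).

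In antigen presentation, 2 of 13 MHC class II genes (H2-DMb1 and Ctss) and 1 of 21 MHC class I genes (Tap2, a peptide transporter gene) were higher, against 2.99% of all genes, and none was lower. H2-DMb1 measured 193 and 218 CPM at P10 and 302 and 347 CPM at P15. The interferon list had 2 of 36 members higher, Ifit1 and Oas3, and none lower, but its median was -0.02 in batch 1 and 0.90 in batch 2. Of 32 complement and phagocytosis genes, Itgb2 and C5ar1 were higher and Gas6 and Cd36 lower, with a median of -0.01. Over all genes 2.99% were higher and 3.49% lower. Without the 4 libraries in the same order, no MHC class II gene was called in any fit, 0, 0, 0 and 1 interferon genes and 1, 0, 0 and 1 MHC class I genes were called higher, and complement genes numbered 0, 0, 0 and 0 higher and 2, 1, 1 and 0 lower.

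Adhesion genes moved in both directions, with 9 of 38 higher and 3 lower (batch 1 median 0.49; batch 2 median 0.49). Higher members included Selplg, Mmp9, Col27a1, Jam2, Cd44, F11r, Itgb2 and Vcam1. F11r and Jam2, junctional adhesion molecules, measured 1334 and 1191 CPM and 81.6 and 65.6 CPM at P10. At P15 the F11r values were 1838 and 2447 CPM and the Jam2 values 145 and 149 CPM. The lower members were Itgb1, Timp2 and Hpse. Hpse, the enzyme that cuts heparan sulfate, measured 6.82 and 14.5 CPM at P10 and 0.0428 and 0.213 CPM at P15. Mmp9 is also expressed by neutrophils and stands in the neutrophil list. Adhesion counts without the 4 libraries, in the same order, were 3, 3, 1 and 1 higher and 1, 1, 1 and 1 lower.

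Among regulators of myeloid identity the share called was near that over all genes (6.49%). Of 41 myeloid transcription factors, Klf6, Nfe2l2 and Irf5 were higher and none was lower, with a median of 0.36. Irf5, an interferon regulatory factor, measured 128 and 104 CPM at P10 and 199.8 and 261 CPM at P15. Of 32 TGF-beta and BMP genes, Tgfbr1 and Tgif1 were higher and Tgfb2 lower. Of 21 CSF1 receptor and survival genes the one called was Csf3r, which was higher and also stands in the neutrophil list. Csf1r itself, the receptor microglia need to survive, differed by 0.31 ± 0.19 (SE; limma adjusted p = 0.392).

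**Figure D3:**
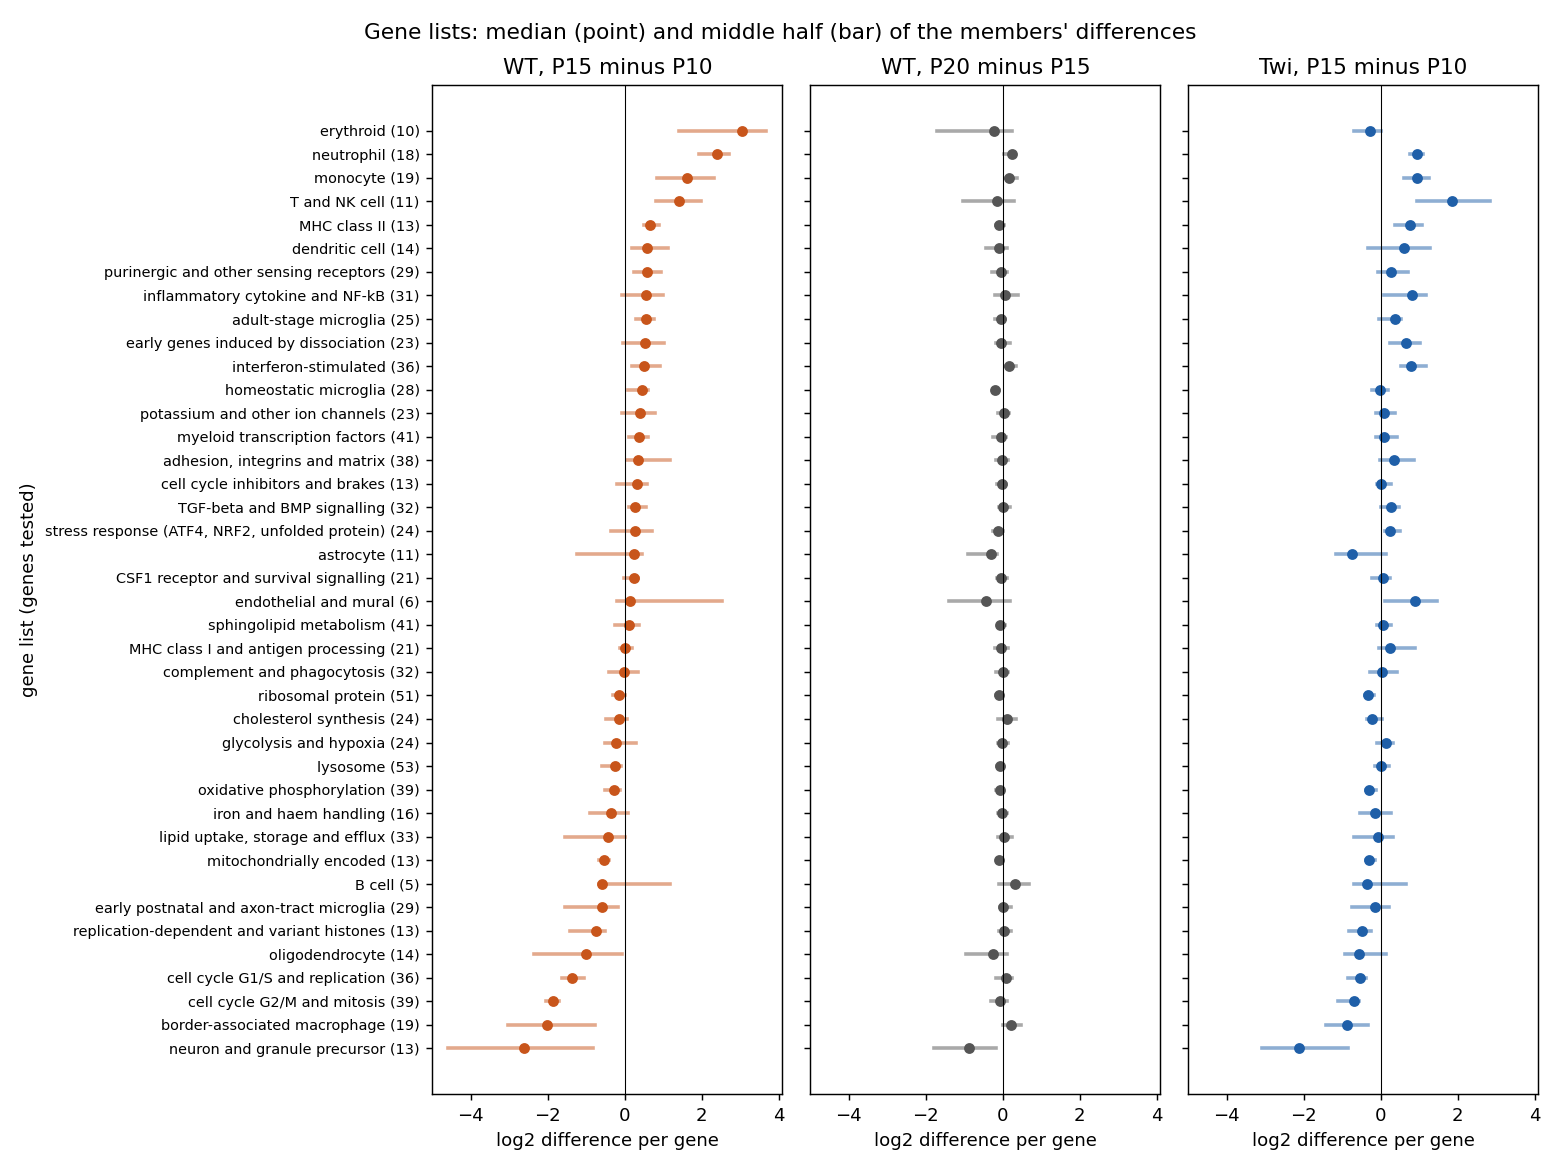
Gene lists with at least 5 genes tested, ordered by their median log2 difference between WT P15 and WT P10; points are medians over the genes of a list and bars run from the first to the third quartile. In the left panel the cell cycle lists lie at -1.37 and -1.87 and the neutrophil list at 2.39; the middle panel shows WT P20 minus P15, which shares the P15 libraries, and the right panel Twi P15 minus P10.

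Markers of other cell types differed between the ages, and their levels are given because all groups above were measured in the same sorted mixtures. Neutrophil genes were higher in 11 of 18 members and lower in none, with a median of 2.39 (batch 1, 1.75; batch 2, 2.67). Their summed level was 2552 and 6004 CPM at P10 and 15580 and 16310 CPM at P15. Ngp, a neutrophil granule gene, measured 1371 and 2919 CPM and then 7447 and 6943 CPM. Retnlg measured 49.8 and 138 CPM at P10 and 762 and 969 CPM at P15, a 9.20-fold difference. The defining genes S100a8 and S100a9 measured 108 and 882 CPM and 71.5 and 403 CPM at P10, and 1899 and 2424 CPM and 1122 and 1369 CPM at P15, and missed the threshold (limma adjusted p = 0.0942 and 0.0699). Without the 4 libraries in the same order, 0, 8, 0 and 0 neutrophil genes were called.

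Monocyte genes were higher in 8 of 19 members and lower in none, with a median of 1.62 (batch 1, 1.36; batch 2, 2.16). Their summed level was 2136 and 3797 CPM at P10 and 5862 and 6368 CPM at P15. Clec4e, an activating lectin receptor, measured 2.40 and 3.15 CPM and then 31.6 and 22.7 CPM, and Ly6c2, the classical monocyte marker, measured 10.4 and 26.7 CPM and then 75.6 and 93 CPM. Ccr2, the receptor that defines these monocytes, measured 57.3 and 103 CPM and then 121 and 176 CPM and was not called (limma adjusted p = 0.276). Several genes of this list, among them Cd177, Hp and Chil3, are also expressed by neutrophils. Without the 4 libraries in the same order, 1, 8, 1 and 0 monocyte genes were called.

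Border-associated macrophage genes went the other way, with 7 of 19 lower and none higher and a median of -2.02 (batch 1, -2.53; batch 2, -1.34). Their summed level was 1947 and 3630 CPM at P10 and 1164 and 1097 CPM at P15. Mrc1, the mannose receptor gene, measured 366 and 761 CPM at P10 and 65.6 and 45.3 CPM at P15, and Folr2, a folate receptor gene, 30.1 and 63.8 CPM and then 2.21 and 1.39 CPM. Lyve1, Cd38, Dab2, Gas6 and Colec12 were called too, while Pf4 and Cd163 were not (limma adjusted p = 0.214 and 0.220). Of this list, 6, 2, 3 and 1 were called lower without the 4 libraries in the same order.

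Neuronal and granule precursor genes were lower in 6 of 13 members, with a summed level of 226 and 112 CPM at P10 and 19.8 and 22.9 CPM at P15. Neurod1, a transcription factor of granule neurons, measured 73.3 and 20.8 CPM and then 0.0432 and 0.904 CPM. Sox11, a transcription factor of immature neurons, measured 61.5 and 29.3 CPM and then 0.650 and 0.517 CPM. Oligodendrocyte genes were lower in 3 of 14 members, with a summed level of 817 and 644 CPM at P10 and 369.6 and 462.5 CPM at P15. T and NK cell genes were higher in 3 of 11 members, with summed levels of 23 and 19.7 CPM at P10 and 85 and 104 CPM at P15. Without the 4 libraries in the same order, 0, 1, 0 and 2 neuronal, 1, 1, 0 and 1 oligodendrocyte, and 1, 1, 1 and 0 T and NK genes were called. None of 14 dendritic cell, 10 erythroid or 11 astrocyte genes was called by limma. The erythroid list nevertheless had a median of 3.05 (batch 1, 3.47; batch 2, 1.54), and its summed level was 34.8 and 32.4 CPM at P10 and 161 and 375.2 CPM at P15. Both P15 libraries lay above both P10 libraries for 8 of its 10 genes and below them for 1. The ages did not overlap for 51.1% of all genes tested, counting either direction. No measured neutrophil, monocyte or border-associated macrophage marker was at 0 in any of the 4 libraries, whereas the astrocyte markers Aldh1l1, Mlc1 and Aqp4 were listed at 0 in at least 1. The part of these other cells in the differences of shared genes was not tested.

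**Figure D4:**
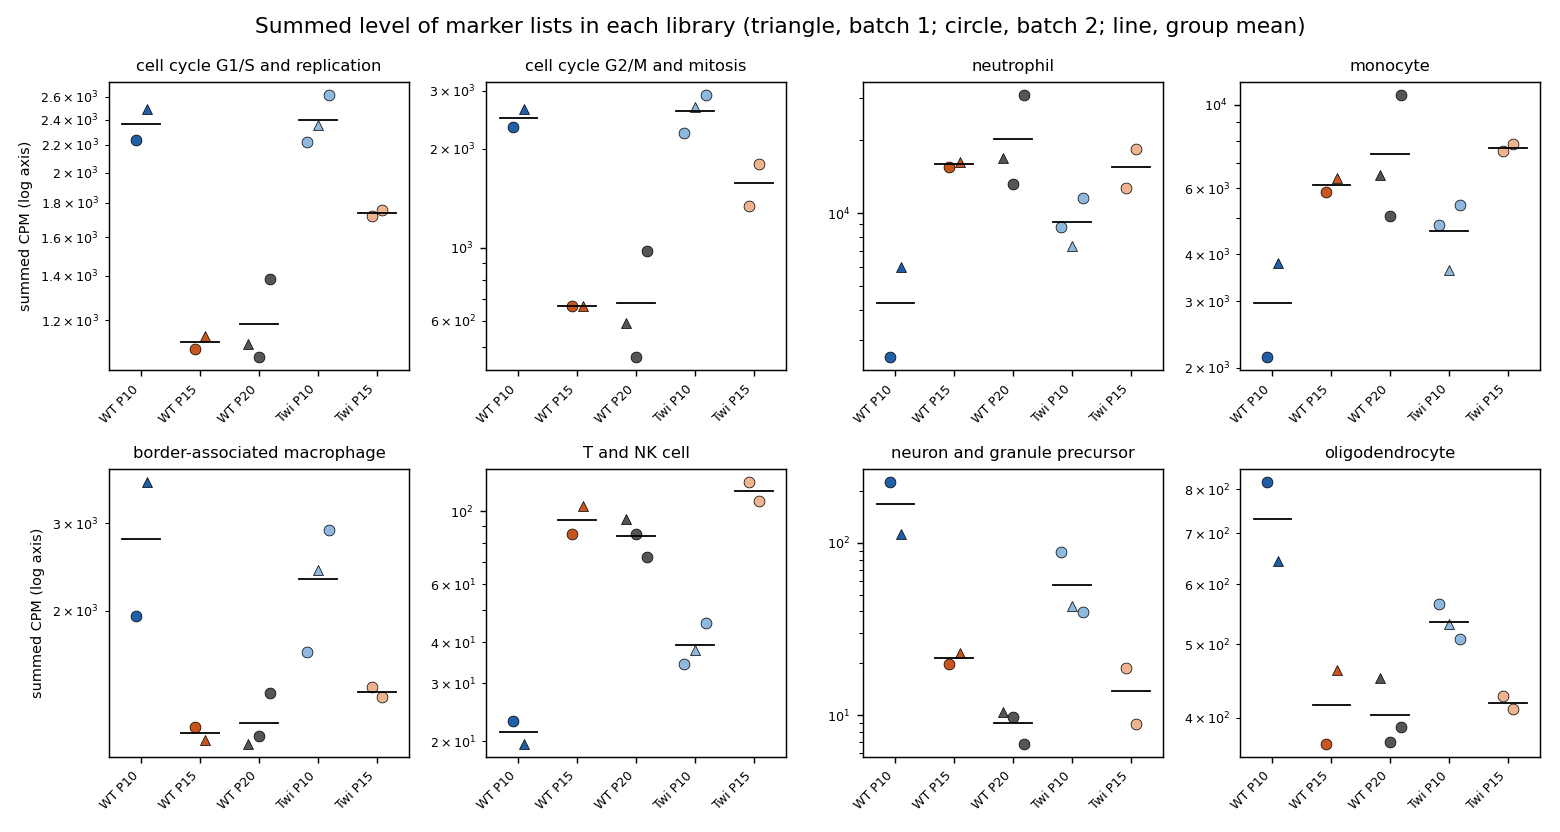
Summed level in CPM, on log axes, of 2 cell cycle lists and 6 cell type lists in each library; triangles are batch 1, circles batch 2, and lines group means. The neutrophil sum lies at 2552 and 6004 CPM in WT P10 and at 15580 and 16310 CPM in WT P15, while the G2/M sum lies at 2321 and 2637 CPM in WT P10 and at 664 CPM in both WT P15 libraries.

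Some of the largest differences were in genes of low level. Both P15 libraries listed 14 of the lower genes at 0, among them Ociad2 (4.57 and 5.32 CPM at P10), Mamdc2 (3.89 and 4.38 CPM) and Tspan6 (4.39 and 2.43 CPM). Both P10 libraries listed 2 of the higher genes at 0, Gimap1 (1.37 and 1.31 CPM at P15) and Bik (1.43 and 0.532 CPM). Mcoln3, a lysosomal channel gene, measured 7.35 and 13.4 CPM at P10 and 0 and 0.0271 CPM at P15. Klrd1, an NK cell receptor gene, measured 0.344 and 0.393 CPM at P10 and 5.01 and 6.73 CPM at P15. Arhgef37, an exchange factor gene, measured 0.726 and 0.986 CPM and then 8.34 and 11.8 CPM. Bbs9, part of a ciliary transport complex, measured 16.5 and 18.1 CPM and then 69.1 and 88.4 CPM, a 4.55-fold difference (log2 difference 2.17 ± 0.20 SE; limma adjusted p = 0.000334).

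Between P15 and P20, no WT gene was called by limma (0% of 13292), and the unadjusted p was under 0.05 for 398 (2.99%). That comparison shares the P15 libraries with the P15 to P10 comparison. Fen1 measured 66.2, 65.6 and 71.1 CPM at P20, Mki67 46.1, 39.3 and 55.8 CPM, and Ctsb 5861, 5169 and 5342 CPM. Selplg measured 5927, 5112 and 5189 CPM at P20 and Btg2 602, 557 and 559 CPM. In all 5 genes the P20 levels lay on the P15 side of both P10 levels. The medians from P15 to P20 were 0.07 for G1/S, -0.06 for G2/M, -0.19 for homeostatic and 0.02 for early postnatal genes. Neutrophil sums at P20 ran from 13250 to 30610 CPM, and the highest was in WT P20 replicate 3.

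The difference between the later and the earlier step was tested as a contrast of its own. It was called for 4 genes (0.0301%), and 1354 (10.2%) had an unadjusted p under 0.05. The call ended (0 genes) in the 7 WT libraries alone, with batch 2 for the unnumbered library and on the scales log2(CPM + 1), log2(TPM + 1) and log2(TPM + 0.1), while a shift to a common median gave 22 genes and library quality weights 64. The 4 genes were Hpse, Bbs9, Fen1 and the unnamed locus C330027C09Rik, which was named here after its value was seen. Gpnmb (limma adjusted p = 0.0553), Mcm3 (0.0591) and Psat1 (0.0637) followed. Both steps use the same P15 libraries. For Hpse the P20 levels were 0.427, 1.10 and 0.925 CPM, between those of P15 and P10.

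Twi mice gave the same age comparison in 5 other libraries. These libraries also entered the fit whose pooled spread the WT calls rest on. Both Twi P15 libraries were in batch 2 and Twi P10 replicate 2 was in batch 1, so the Twi difference leans on the batch term. In Twi 39 genes were called (0.293%), of which 25 rose (0.188%) and 14 fell (0.105%). The unadjusted p was under 0.05 for 1728 (13%). Of the 398 genes called higher in WT, 375 (94.2%) had a positive difference in Twi, against 49.1% of all genes, and 13 were called higher there. Of the 464 called lower in WT, 432 (93.1%) had a negative difference in Twi, against 50.9% of all genes, and 9 were called lower. None was called in the opposite direction. The median Twi difference was 0.58 for the first set and -0.56 for the second, against 1.28 and -1.57 in WT, where these genes had been selected by that difference.

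Genes called in both genotypes included Btg2, Trpm2, Klf6, Gcnt2 and Cxcl16 on the higher side and Ociad2, Sox11, Gas6, Fcgrt and Npl on the lower side. Trpm2 differed by 1.27 ± 0.22 in Twi (SE; limma adjusted p = 0.0383). For G1/S genes the Twi median was -0.53 and for G2/M genes -0.70, with 33 of 36 and 38 of 39 members negative, and no member was called. For homeostatic genes the Twi median was -0.03, with 11 of 28 members positive. Mki67 measured 148, 203 and 200.7 CPM in Twi at P10 and 142 and 149 CPM at P15.

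No gene passed the test of the difference between genotypes in this age step (0% of 13292 by limma), and 982 (7.39%) had an unadjusted p under 0.05. Among the list members, 15 of 39 G2/M genes and 11 of 36 G1/S genes had an unadjusted p under 0.05. This was not particular to the cell cycle lists. The same held for 13 of 53 lysosomal, 9 of 29 early postnatal and 9 of 31 cytokine and NF-kB genes. It also held for 6 of 18 neutrophil genes, but for 0 of 51 ribosomal protein genes. The genes with a name and the smallest p were Ap3m2, Hpse, Bbs9, Ch25h, Gpnmb and Ptpro, all at an adjusted p of 0.135. Gpnmb measured 45.8, 15.5 and 111 CPM in Twi at P10 and 14 and 19.95 CPM at P15, and Hpse 8.88, 4.53 and 10.2 CPM and then 6.59 and 5.35 CPM. The Twi libraries of the 2 ages overlapped for both genes, as they did for most genes. Over all genes, both Twi P15 libraries lay above every Twi P10 library for 15% and below for 13.9%. In WT both genes were called lower, and no called gene overlapped between the WT ages. The contrast in overlap therefore says little about genotype.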

How the data were processed

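RNA of sorted hindbrain myeloid cells was sequenced in 15 libraries, of which 4 enter the comparison. The authors deposited log2 CPM values after TMM scaling and a second table of TPM values. Per the submitters' processing notes, kallisto 0.46.0 and the GRCm39 build were used, and other steps are not given in the sources used here. CPM was computed as 2 to the power of the deposited value minus the same for the lowest value (-3.44), with results under 0.001 set to 0. An unnamed row held 0.0282 to 0.0687% of each library and was left out. Only 32.3 to 41.1% of low values came out as whole steps (tolerance 0.05) of the commonest step size, so reads were not recovered and no count model was run. The TPM rows summed to 87.6 to 89.8% of the full TPM total.

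The deposited log2 values were fitted in limma 3.58.1 (R 4.3.3) over all 15 libraries, with 6 genotype-by-age groups and batch, 8 residual degrees of freedom, and trended, robust empirical Bayes. P-values were adjusted by Benjamini-Hochberg over 13292 genes that reached 1 CPM in 2 or more libraries, and called under 0.05. The fit was tested on simulated data. It recovered 41% of genes changed by 1 log2 unit and 92.5% of those changed by 2. The changed genes lay above the median level, and the simulation held independent normal noise and no batch effect. Log2 differences are on the deposited scale, which understates changes of low genes, and values given as fold are ratios of the groups' mean CPM.

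The comparison and the gene lists were chosen with earlier results of these data known, so their counts are descriptions. Genes were named by a rule: among called genes with a name whose ages did not overlap, the 12 highest and 12 lowest log2 differences, the 8 largest rises and falls in mean CPM, as many as 5 members per list by smallest p, defining markers, and the 6 smallest p in each test of a difference. Some were left out for length. Alternatives were other batch terms, library subsets, filters, scales, normalization, weights, empirical Bayes settings, a Y-linked covariate, a replicate block and each library left out. Some results are not reported here.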

Additional observations from a re-analysis of the deposited data

Results flagged for a closer look

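For 4 genes the WT change from P15 to P20 differed from the change from P10 to P15 by limma's test of the difference itself (adjusted p under 0.05). Both changes use the same P15 libraries, so a deviation in those libraries enters both with opposite sign. The later change minus the earlier one was 7.68 log2 units for Hpse, 3.17 for C330027C09Rik, -2.34 for Bbs9 and 1.73 for Fen1. Hpse measured 6.82 and 14.5 CPM at P10, 0.0428 and 0.213 CPM at P15, and 0.427, 1.10 and 0.925 CPM at P20. C330027C09Rik measured 44.05 and 48.1 CPM at P10, 7.06 and 9.71 CPM at P15, and 14.3, 10.3 and 16 CPM at P20.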

How the results depend on the processing

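No called gene overlapped between WT P10 and P15, which fixes its direction in most alternatives, so counts are compared. Against 398 higher and 464 lower, the 4 WT libraries of these ages alone gave 203 and 263, batch 2 libraries alone 3 and 9, no filter on low values 138 and 243, library quality weights 748 and 775, no trend and no robust fit 179 and 269, and a replicate block with batch 136 and 94. The 7 WT libraries alone gave 300 lower and the Y-linked covariate 250 higher. Leaving out 1 library gave 37 to 453 higher and 66 to 515 lower. Replicate number 1 is the only number the WT P10 and P15 columns share, and both of these libraries were in batch 2. Their deviations from the group means, not adjusted for batch, correlated at 0.034 across genes. Whether they share an animal group, day or preparation was not tested.

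For WT P20 against P15 (0 genes), batch 2 libraries alone called 5 and no filter 1, and leave-outs 0 to 4. For the difference between the steps (4 genes), 0 were called with batch 2 for the unnumbered library, in the 7 WT libraries alone and on the scales log2(CPM + 1), log2(TPM + 1) and log2(TPM + 0.1). It called 2 in batch 2 alone, 7 with at least 5 CPM, 22 after a shift to a common median, 64 with quality weights, and 1 each without trend, with the Y-linked covariate and with the replicate block. Leave-outs gave 0 to 13. For Twi P15 against P10 (39 genes), the counts were 20 with batch 2 for the unnumbered library, 18 in batch 2 alone, 14 without a filter, 17 on log2(TPM + 0.1), 9 with quality weights, 8 without trend, 19 with the Y-linked covariate, 11 with the replicate block, and 4 to 207 in leave-outs, the highest without Twi P15 replicate 2. The genotype-by-age difference (0 genes) gave 9 without a filter and 0 to 7 in leave-outs. The cause of these changes was not tested. Depth per library is unknown, and 2 libraries per age limit what small differences can be called.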
